A study of Mus musculus with 36 samples.

Results

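Arntl, the core activator of the circadian clock, was followed with its activating partners Clock and Npas2 and with Cry1 and Nfil3, both repressors whose genes are tied to the same loop. These were 5 of the 16593 gene symbols on the array, chosen by name. Every probe that the array annotation assigns to one of these symbols was taken, which gave 7 probes: 3 for Clock and 1 for each of the other genes. The RNA came from kidney cortex and kidney medulla of Balb/c mice, collected 24 h after 177Lu-octreotate, a somatostatin analogue that carries the beta-emitting radionuclide lutetium-177 and is used in radionuclide therapy. The injected activities were 0, 1.3, 3.6, 14, 45 and 140 MBq, so each tissue had 1 control group (0 MBq) and 5 treated groups. Each of the 12 groups held 3 arrays, 36 in all. The labels name the strain, the tissue, the activity and the nuclide. They do not give the time of day of injection or of tissue collection, what the 0 MBq mice received, or whether a group's 3 arrays stand for different mice. The p-values therefore measure the spread between these samples, which may be technical.

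The mammalian clock is a feedback loop of transcription factors. BMAL1, the protein of Arntl, pairs with CLOCK or with its relative NPAS2, and the pair binds E-box sequences and switches on the Per and Cry genes, whose proteins then block the pair. A second loop ties back to Arntl, because the pair also switches on the repressors Nr1d1 and Nr1d2, which compete with ROR activators at ROR elements (RORE) in genes such as Arntl, Npas2, Cry1 and Nfil3. In the mouse kidney, as in other peripheral organs, Arntl messenger RNA and the Per and Dbp messenger RNAs peak at opposite phases of the day, and NFIL3 represses through the D-box sites at which DBP activates.

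The promoter windows of Arntl and Nfil3 are shown because both genes were measured here and both windows hold the core of a ROR element. The sequences are RefSeq windows of the GRCm38.p6 build, from 250 bases before to 50 bases after a gene's start, written 5′ to 3′ on the gene's strand with the matched letters in capitals. The Arntl window lies at chr7:113207261-113207560 on the plus strand, and its match begins 31 bases after the start. The Nfil3 window lies at chr13:52980990-52981289 on the minus strand, and its match, which reads as the reverse complement of the core, begins 12 bases before the start, at position -12.
Arntl: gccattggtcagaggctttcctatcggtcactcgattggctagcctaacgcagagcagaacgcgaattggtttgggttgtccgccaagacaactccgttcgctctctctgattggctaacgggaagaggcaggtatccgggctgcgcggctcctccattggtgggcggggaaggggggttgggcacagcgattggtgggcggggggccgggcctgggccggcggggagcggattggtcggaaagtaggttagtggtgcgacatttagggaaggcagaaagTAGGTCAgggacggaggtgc
Nfil3: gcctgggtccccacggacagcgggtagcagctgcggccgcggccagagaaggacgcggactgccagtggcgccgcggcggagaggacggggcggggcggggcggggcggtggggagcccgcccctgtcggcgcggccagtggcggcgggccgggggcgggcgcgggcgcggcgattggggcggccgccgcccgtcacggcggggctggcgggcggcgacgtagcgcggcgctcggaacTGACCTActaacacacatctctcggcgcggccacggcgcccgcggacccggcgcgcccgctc

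All 5 genes had a RefSeq window. The letters searched on both strands were CACGTG for the E-box, TAGGTCA or TGGGTCA for the RORE core, and TTANGTAA for the D-box, and no matches overlapped in the windows of the 5 genes. The RORE core was found in 2 of the 5 genes, Arntl and Nfil3, and in 7.35% of all 27025 genes (6.45% of their 32851 windows). The E-box was found in 1 of the 5, Cry1, with its match at position -60, against 8.09% of all genes (7.15% of windows). The D-box was found in 0 of the 5 and in 2.72% of all genes (2.32% of windows). The 3 windows of Clock, the window of Npas2 and a second, overlapping window of Arntl held none of these letters, which says only that they are not in those 300 bases.

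Of the 25697 probes, between 12152 and 13319 per array (47.3% to 51.8%) were above background, that is, had a detection p under 0.05. The array number limits the precision. Median signals before normalisation ran from 112.2 to 225 over the arrays, and the lowest of each tissue was control replicate 1. The labelled tissues were both kidney by their markers. Of the proximal tubule markers, 6 were on the array and all 6 were detected on every array of both tissues, and 4 of 5 thick limb and distal tubule markers and 4 of 5 collecting duct markers were too, with Calb1 and Avpr2 below background on all arrays. The summed proximal tubule signal was as high in treated medulla (70960 to 94950) as in treated cortex (65060 to 88230), so proximal tubule markers did not set the tissues apart. Collecting duct markers tended to be higher in treated medulla (6271 to 12310, median 8136) than in treated cortex (3605 to 6825, median 5678), with overlapping ranges. Replicate 3 of the 14 MBq groups carried adrenal gland transcripts in both tissues, with all 6 markers detected and a summed signal of 17000 in cortex and 11380 in medulla, against 201.4 to 237.3 on the 6 control arrays. Adipocyte markers, of which 5 of 6 were on the array, summed to 22770 in cortex on replicate 2 at 1.3 MBq, 19780 on replicate 3 at 14 MBq and 14180 on replicate 3 at 45 MBq, against 169.2 to 6553 on the cortex controls. In such bulk tissue, fewer cells of a type and less RNA per cell cannot be told apart.

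Arntl, which encodes the partner that the activator pair cannot do without, was above background on every control array and fell to or near background after every injected activity. In cortex the log2 normalised signal on the 3 control arrays was 8.50, 6.44 and 7.38. It was 5.43, 5.83 and 5.32 at 1.3 MBq, 5.11, 4.99 and 4.79 at 3.6 MBq, and 5.58, 4.81 and 5.42 at 14 MBq. At 45 MBq it was 5.43, 4.94 and 5.09, and at 140 MBq 5.16, 5.42 and 5.03. All 15 treated arrays lay below all 3 controls, and only replicate 2 at 1.3 MBq, the array with the highest adipocyte sum, was above background, while all 3 controls were. Without that array the cortex call over the treated mean, given below, held (limma adjusted p = 0.00146), and that at 1.3 MBq did not (0.0639). All 15 treated arrays lay below the controls for 0.981% of the 10803 features tested in cortex.

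In medulla the control arrays read 8.26, 6.88 and 7.19 for Arntl on the same log2 scale. The signal was 5.95, 5.84 and 5.95 at 1.3 MBq, 5.31, 4.98 and 5.43 at 3.6 MBq, and 6.06, 5.61 and 5.68 at 14 MBq. At 45 MBq it was 5.01, 5.38 and 4.97, and at 140 MBq 5.46, 5.46 and 5.41. Again all 15 treated arrays lay below the 3 controls, which was true of 0.708% of the 10869 features tested in medulla. The 3 arrays at 1.3 MBq and 2 of the 3 at 14 MBq were above background, and the other 10 treated arrays were not.

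**Figure D1:**
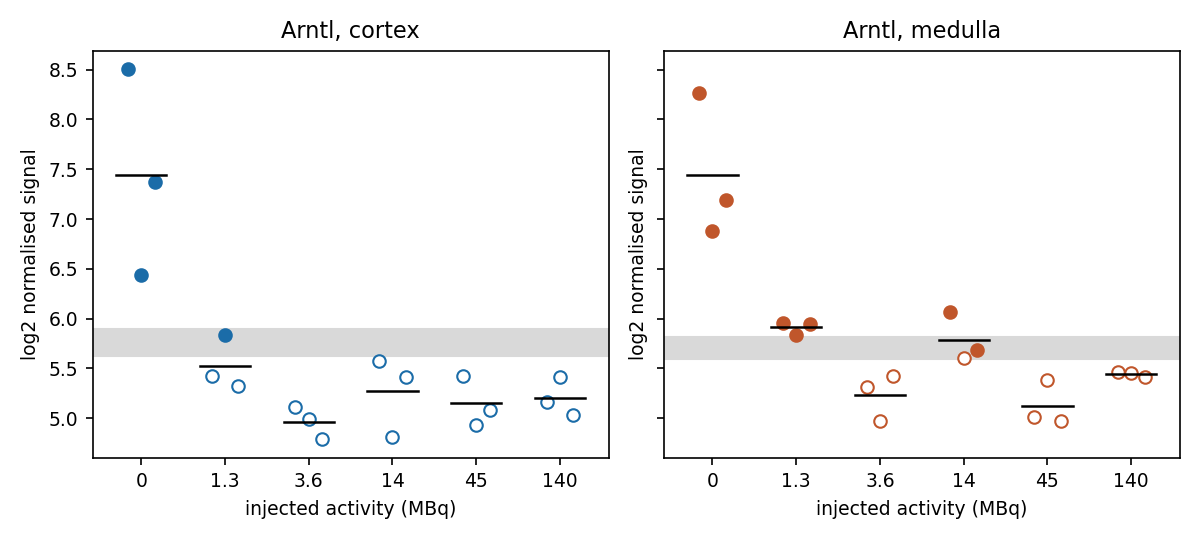
Log2 normalised signal of Arntl (vertical axis) by injected activity in MBq (horizontal axis) for cortex and medulla, with 1 point per array and a bar at the mean of each group of 3. Filled points were above background, open points were not, and the grey band spans the arrays' detection limits. The controls spread from 6.44 to 8.50, and all 30 treated points lie between 4.79 and 6.06.

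In limma's test with Benjamini-Hochberg adjustment over all features, Arntl fell at each of the 5 activities in both tissues. To be tested, a probe had to be above background on at least 3 arrays. In cortex Arntl met this through the 3 controls, where it was high, and 1 treated array. On the treated cortex arrays alone it did not pass, so its cortex tests depend on the controls for entry. The SE and p of limma's test use a spread pooled over the 6 groups of a tissue. The control SD of Arntl was 1.03 in cortex and 0.73 in medulla. Treated groups had SDs of 0.16 to 0.40 in cortex and 0.03 to 0.24 in medulla, so the pooled SE understates the spread of the controls. In cortex Arntl fell at 1.3 MBq by 1.91 ± 0.37 on the log2 scale (SE, n = 3 against 3, limma adjusted p = 0.0393), where it was above background on 1 of 3 arrays. The groups at the other activities were below background on all 3 arrays, so only a bound can be given. A bound sets the control mean against the lowest signal that counted as above background, or the probe's own signal where that was higher. The p printed beside a bound is that of the fitted difference at the measured signals. The bound itself was not tested. For cortex the bound was at least 3.02-fold lower at 3.6 MBq (limma adjusted p = 0.00521), at least 3.16-fold lower at 14 MBq (0.0122), at least 3.18-fold lower at 45 MBq (0.00855) and at least 3.22-fold lower at 140 MBq (0.00561). In those comparisons between 0.130% and 0.833% of the features were called lower: 0.130% at 1.3 MBq, 0.130% at 3.6 MBq, 0.833% at 14 MBq, 0.389% at 45 MBq and 0.204% at 140 MBq.

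Medulla was tested in the same way. Arntl fell by 1.53 ± 0.26 on the log2 scale at 1.3 MBq (SE, n = 3 against 3, limma adjusted p = 0.0144) and by 1.66 ± 0.26 at 14 MBq (limma adjusted p = 0.00524). It was at least 3.29-fold lower at 3.6 MBq (limma adjusted p = 0.000478), at least 3.34-fold lower at 45 MBq (0.000244) and at least 3.45-fold lower at 140 MBq (0.000494). The share of features called lower was 0.193% at 1.3 MBq, 0.589% at 3.6 MBq, 1.94% at 14 MBq, 0.892% at 45 MBq and 0.460% at 140 MBq. These 5 comparisons share the same 3 control arrays within a tissue, so they are not independent of each other. Same-numbered control arrays of cortex and medulla deviated together (r from 0.613 to 0.659). Agreement between the tissues is therefore not an independent result either.

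Features called lower at all 5 activities were few: 6 in cortex, or 0.0555% of those tested, and 8 in medulla, or 0.0736%. Arntl was the only one of the 5 genes among them in either tissue. The others in cortex were Cntln, Nsd1, Wdfy3, Zbtb7a and a probe without a gene name. In medulla they were Avpr1a, Glipr2, Nsd1, Wdfy3, Zbtb7a, Zc3h12d and a probe without a gene name.

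The lowest activity carries the thinnest of these calls. In cortex the Arntl call at 1.3 MBq was lost, with adjusted p from 0.0527 to 0.186, on leaving out any one of 12 of the 18 arrays: control replicate 1, replicates 2 and 3 at 3.6 MBq, or any array at 1.3, 45 or 140 MBq. The cortex calls at 14 and 45 MBq were lost without replicate 2 of that activity (adjusted p = 0.0606 and 0.0513), and the medulla call at 1.3 MBq without replicate 1 of that activity (adjusted p = 0.0695). The other 6 single-activity calls of Arntl held with any one array left out. With no detection filter and every probe tested, the cortex call at 1.3 MBq was lost (limma adjusted p = 0.0611), and the other Arntl calls held.

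Over the mean of the 5 treated groups, Arntl was called lower than control in cortex (limma adjusted p = 0.000838, 15 against 3 arrays) and in medulla (limma adjusted p = 0.000102). With groups below background on all 3 arrays set at their bound, it was 3.26-fold lower in cortex and 3.22-fold lower in medulla. The other groups entered at their measured signal, which on some arrays was below background. These bounds are therefore not strict minima, and they were not themselves tested. By p Arntl ranked 13 of 10803 features in cortex and 5 of 10869 in medulla. An exact two-sided permutation test over the 816 ways to choose 3 of 18 arrays gave p = 0.0012 in each tissue, the smallest it can give. The size depends on the background correction. With the authors' deposited normalised values the fitted log2 difference was -0.96 in cortex (limma adjusted p = 0.00363) and -0.82 in medulla (limma adjusted p = 0.000550). With quantile normalisation but no background correction it was -0.86 in medulla (limma adjusted p = 0.000474), and the cortex call held too (limma adjusted p = 0.00326). These differences are smaller than the bounds, which apply to background-corrected signals only. With any single array left out, the adjusted p stayed between 0.000108 and 0.00525 in cortex and between 0.000110 and 0.000329 in medulla. The fitted log2 difference then ran from -2.72 to -1.69 in cortex and from -2.23 to -1.53 in medulla. At their smallest, these differences fell short of the bounds, which were -1.71 in cortex and -1.69 in medulla on the log2 scale. The bounds rest on the mean of 3 controls and were not recomputed with an array left out, so they are not firm minima.

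The size of the Arntl fall cannot be compared among the 5 activities. After treatment Arntl was above background on 1 of 15 cortex arrays and 5 of 15 medulla arrays, so its differences among treated groups are mostly differences between background signals. Ordered by mean log2 signal, the 12 groups began with control medulla at 7.44 ± 0.73 (SD, n = 3) and control cortex at 7.44 ± 1.03, which did not differ beyond their spread, and then dropped by 1.53 to medulla at 1.3 MBq (5.91 ± 0.07). Medulla at 14 MBq (5.78 ± 0.24) followed at a distance within the spread of that pair. Next was cortex at 1.3 MBq (5.53 ± 0.27), above background on 1 of 3 arrays. The other 7 groups were below background on all arrays and have no order.

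Clock, which encodes the DNA-binding partner of BMAL1, was well above background on every array and was lower after treatment by a smaller amount. On its brightest probe, used here as the gene's value, the cortex controls read 10.28, 10.27 and 10.44 in log2 signal. The treated cortex arrays read 9.84, 10.27 and 9.71 at 1.3 MBq, 9.78, 9.24 and 9.50 at 3.6 MBq, and 9.51, 9.40 and 9.87 at 14 MBq. They read 9.59, 9.44 and 9.53 at 45 MBq and 9.88, 9.84 and 9.37 at 140 MBq. Replicate 2 at 1.3 MBq, with its high adipocyte sum, reached the level of the lowest control, and the other 14 treated arrays lay below all 3 controls.

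The medulla controls read 10.43, 10.27 and 10.18 for Clock. The treated medulla arrays read 9.79, 10.02 and 10.18 at 1.3 MBq, 10.01, 9.75 and 9.89 at 3.6 MBq, and 9.66, 9.64 and 9.62 at 14 MBq. They read 9.35, 9.88 and 9.41 at 45 MBq and 9.71, 9.72 and 9.78 at 140 MBq. Here replicate 3 at 1.3 MBq touched the lowest control, and the rest lay below.

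Over the mean of the treated groups Clock fell by 0.68 ± 0.15 on the log2 scale in cortex (SE, 15 against 3 arrays, limma adjusted p = 0.0295) and by 0.53 ± 0.11 in medulla (limma adjusted p = 0.0163). The exact permutation p was 0.00245 in each tissue. At single activities Clock passed the threshold in medulla at 14 MBq, where it fell by 0.65 ± 0.15 (limma adjusted p = 0.0239), and at 45 MBq, where it fell by 0.74 ± 0.15 (limma adjusted p = 0.0160). The other medulla differences were -0.30 at 1.3 MBq (limma adjusted p = 0.388), -0.41 at 3.6 MBq (0.144) and -0.56 at 140 MBq (0.0747). The 5 cortex differences ran from -0.82 to -0.39, and their limma adjusted p from 0.0665 to 0.448.

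The Clock calls leaned on single arrays. In cortex the call on the treated mean was lost without control replicate 1 (-0.70, limma adjusted p = 0.137), 2 (-0.71, 0.106) or 3 (-0.62, 0.0688). In medulla it was lost without control replicate 1 (-0.47, limma adjusted p = 0.131) or 2 (-0.54, 0.0639). The medulla calls at 14 MBq ended without control replicate 1 or 2 or any array at 14 MBq (adjusted p from 0.0526 to 0.0914), and those at 45 MBq without control replicate 1 or replicate 1 or 3 of that activity (adjusted p from 0.0642 to 0.0853). A call was gained in cortex at 3.6 MBq without replicate 1 of that activity (adjusted p = 0.0220), in cortex at 14 MBq without replicate 3, the array with adrenal transcripts (0.0336), and in medulla at 140 MBq without replicate 2 at 45 MBq (0.0351).

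The probes of Clock did not give the same picture in medulla. A dimmer probe, above background on 19 of 36 arrays, differed by -0.58 on the log2 scale in treated cortex (exact permutation p = 0.00613, limma adjusted p = 0.129). In medulla its difference was -0.04 (exact permutation p = 0.826, limma adjusted p = 0.922). The remaining Clock probe was above background on 0 arrays. The fall of Clock in medulla therefore stands on 1 probe.

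Nfil3, which encodes a repressor that binds D-box sites, was above background on all 36 arrays. The cortex controls read 8.98, 8.77 and 8.23 in log2 signal. The treated cortex arrays read 7.35, 7.75 and 7.72 at 1.3 MBq, 7.66, 7.69 and 8.35 at 3.6 MBq, and 7.52, 7.13 and 7.40 at 14 MBq. They read 8.06, 7.40 and 7.52 at 45 MBq and 7.56, 8.07 and 7.71 at 140 MBq. Replicate 3 at 3.6 MBq lay above the lowest control, and the other 14 treated arrays lay below all controls.

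In medulla the controls disagreed about Nfil3, at 9.27, 9.53 and 8.15. The treated medulla arrays read 8.30, 8.43 and 8.30 at 1.3 MBq, 8.68, 8.74 and 8.56 at 3.6 MBq, and 8.23, 8.24 and 8.24 at 14 MBq. They read 8.20, 8.09 and 8.27 at 45 MBq and 8.47, 7.97 and 7.92 at 140 MBq. Control replicate 3 sat inside the treated range, while control replicates 1 and 2 lay above every treated array.

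**Figure D2:**
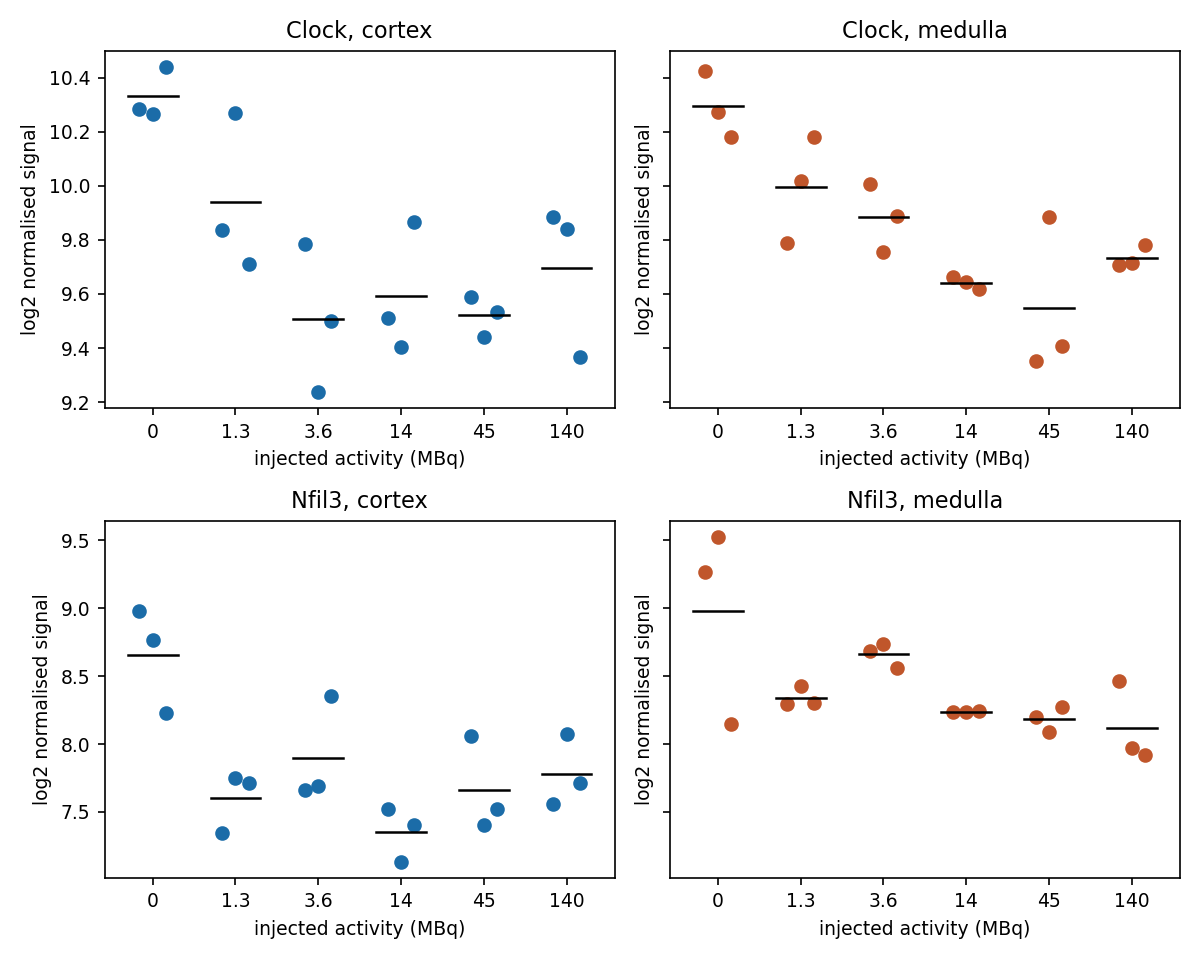
Log2 normalised signal (vertical axis) of Clock (brightest probe) and Nfil3 by injected activity in MBq (horizontal axis) in cortex and medulla, with 1 point per array and a bar at the mean of each group of 3. In the Nfil3 medulla panel, control replicate 3 at 8.15 lies among the treated arrays, apart from the other controls at 9.27 and 9.53.

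Nfil3 fell in cortex by 1.00 ± 0.19 on the log2 scale over the treated mean (SE, 15 against 3 arrays, limma adjusted p = 0.0135, exact permutation p = 0.00245). At single activities in cortex it passed at 14 MBq, where it fell by 1.31 ± 0.25 (limma adjusted p = 0.0198), and the other 4 differences ran from -1.05 to -0.76 (limma adjusted p from 0.0744 to 0.199). In medulla the treated mean differed from control by -0.67 ± 0.19 (limma adjusted p = 0.0636, exact permutation p = 0.0172), and 0 of the 5 single activities passed (differences from -0.86 to -0.32, limma adjusted p from 0.0960 to 0.523).

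The controls decided these calls too. Without medulla control replicate 3 the Nfil3 difference over the treated mean was -1.09 (limma adjusted p = 0.000362), and all 5 single activities passed, with adjusted p from 0.000544 to 0.0137. The share of all features called without that array is not given here, so whether this gain is particular to Nfil3 cannot be told. In cortex the call on the treated mean was lost without control replicate 1 (-0.84, limma adjusted p = 0.138) or 2 (-0.94, 0.0894). The cortex call at 14 MBq was lost without control replicate 1 or 2 or replicate 1 or 2 of that activity (adjusted p from 0.0590 to 0.0921), and calls were gained at 1.3 and 45 MBq without control replicate 3 (adjusted p = 0.0355 and 0.0204).

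Npas2, which encodes the alternative partner of BMAL1, and Cry1, which encodes a repressor of the pair whose gene is itself under RORE control, were below background on all 36 arrays. The lowest detection p was 0.144 for Npas2 and 0.233 for Cry1. Before normalisation the probes' signals ran from 95.3 to 167 for Npas2 and from 90.0 to 163 for Cry1, where the Clock probe reached 1536 on its own scale. These probes give no fold for either gene, and no difference can be read from them. Thus 3 of the 5 genes were measured.

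Counting over the measured genes, 6 of the 15 tests of a gene at an activity were called lower in cortex, 5 of them Arntl and 1 Nfil3. In medulla 7 of 15 were called, 5 of them Arntl and 2 Clock. Over the treated mean all 3 genes fell in cortex, where 1.10% of the features were called lower, and 2 of 3 in medulla, where 1.63% were. The median difference of the 10803 features in cortex and the 10869 in medulla was 0.00 on the log2 scale. Because the genes were chosen with earlier results of these data known, these counts are a description.

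The test for any difference among all 6 groups called Arntl in cortex (limma adjusted p = 0.0135, 0.722% of features called) and Arntl and Clock in medulla (limma adjusted p = 0.000917 and 0.0374, 5.07% called). Among the 5 treated groups alone, where Arntl cannot be read, limma called 0 of the other 2 genes in cortex (0.259% of features called, 0 of 2 at an unadjusted p under 0.05) and 0 of 2 in medulla (2.93% called), where Clock had an unadjusted limma p under 0.05 (0.0475). The slope on log2 activity was called for 0 of these 2 genes in cortex (0.738% of features called) and 0 of 2 in medulla (0.823% called). The slopes were -0.03 for Clock (95% interval -0.09 to 0.03, limma adjusted p = 0.846) and 0.00 for Nfil3 (-0.07 to 0.07, 0.993) in cortex. In medulla they were -0.05 for Clock (-0.09 to -0.01, limma adjusted p = 0.319, unadjusted 0.0268) and -0.06 for Nfil3 (-0.10 to -0.01, 0.289, unadjusted 0.0198). Between 1.3 and 140 MBq Clock and Nfil3 thus showed no dependence on activity that passed the adjusted threshold, which does not show that there was none.

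**Figure D3:**
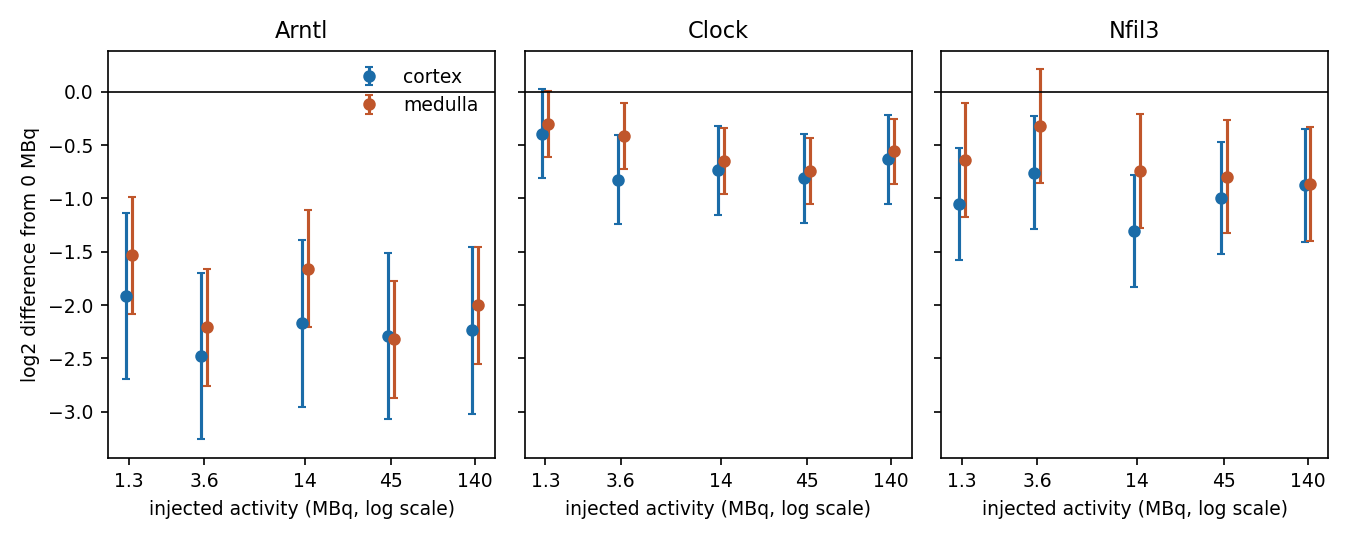
Fitted log2 difference from 0 MBq (vertical axis) against injected activity in MBq (log scale, horizontal axis) for Arntl, Clock and Nfil3 in cortex and medulla, with 95% intervals. Points of 1 tissue share 3 control arrays, and Arntl groups below background are drawn at their measured signal, so for them the text gives bounds. The Arntl points lie between -2.48 and -1.53, the Clock points between -0.82 and -0.30 and the Nfil3 points between -1.31 and -0.32.

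No difference between the tissues passed the test for these genes. At 0 MBq the cortex minus medulla difference was -0.00 for Arntl (95% interval -0.68 to 0.67, limma adjusted p = 0.999), 0.04 for Clock (-0.31 to 0.38, 0.983) and -0.32 for Nfil3 (-0.85 to 0.20, 0.787). Called were 0 of 3 genes, against 0.384% of all features. With cortex and medulla arrays of the same number as a random block, a setting chosen after the data were seen, 110 features were called in place of 44, and still 0 of the 3 genes. The difference between the tissues' shifts under treatment was -0.27 for Arntl (-1.01 to 0.46), -0.15 for Clock (-0.52 to 0.23) and -0.33 for Nfil3 (-0.90 to 0.25), each with a limma adjusted p of 1.00. In that comparison 0% of features were called. For Arntl it rests partly on signals below background.

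Several clock genes beside these 5 rose where Arntl fell. Of 9 clock repressors 8 were measured, and the same 5 rose in each tissue over the treated mean: Per1, Per2, Per3, Cry2 and Ciart, where 1.21% of features in cortex and 2.32% in medulla were called higher. 0 of the 8 fell. The median difference of the 8 was 1.08 in cortex and 0.91 in medulla on the log2 scale, against 0.00 over all features. The list was drawn up with earlier results of these data known and is no independent evidence of its direction. Because same-numbered control arrays of the tissues deviated together, the agreement between cortex and medulla is not independent.

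Ciart, which encodes a repressor of the BMAL1 and CLOCK pair, rose most among the repressors. Its log2 signal was 6.18, 7.17 and 6.24 on the cortex controls and 7.18 to 9.32 on the treated cortex arrays (median 8.66). In medulla it was 6.02, 6.46 and 5.63 on the controls and 6.94 to 8.66 on treated arrays (median 8.33). It rose by 1.90 ± 0.26 in cortex (SE, limma adjusted p = 0.00127) and by 2.03 ± 0.16 in medulla (limma adjusted p = 1.21e-05). Among the listed clock genes it was the one with a called difference among the 5 treated medulla groups (F test, limma adjusted p = 0.00433), with differences from control of 0.97 at 1.3 MBq, 2.05 at 3.6 MBq, 2.45 at 14 MBq, 2.42 at 45 MBq and 2.26 at 140 MBq.

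Per2, a core repressor of the pair, read 10.09, 10.58 and 10.01 on the cortex controls and 11.08 to 11.95 on treated cortex arrays (median 11.52). It rose by 1.27 ± 0.13 (limma adjusted p = 9.85e-05), and in medulla by 1.29 ± 0.14 (limma adjusted p = 0.000166). Per1 rose by 1.54 ± 0.21 and 1.40 ± 0.16, Per3 by 1.14 ± 0.21 and 0.94 ± 0.14, and Cry2 by 1.02 ± 0.17 and 0.87 ± 0.15, in cortex and medulla in that order (limma adjusted p from 0.000231 to 0.00948). The nuclear receptor repressors did not pass. Nr1d1 differed by 0.11 in cortex and -0.20 in medulla, and Nr1d2 by -0.03 and 0.29 (limma adjusted p from 0.561 to 0.984). Bhlhe40, a repressor that competes at E-boxes, differed by -0.19 and -0.30 (limma adjusted p = 0.613 and 0.253).

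Among the output factors, Dbp and Tef encode activators at D-boxes and Noct a deadenylase-related protein with a daily rhythm. Of 5 listed, 3 were measured, with Hlf and Wee1 below the detection filter. Dbp rose by 1.47 ± 0.28 in cortex (SE, limma adjusted p = 0.0129) and by 1.33 ± 0.22 in medulla (limma adjusted p = 0.00427). Its control SD was 1.14 in cortex and 0.89 in medulla, against 0.09 to 0.14 and 0.08 to 0.21 in treated groups. The pooled SE thus understates the spread of the Dbp controls as well. Noct rose in cortex by 1.82 ± 0.40 (limma adjusted p = 0.0270), with a medulla difference of 1.10 (limma adjusted p = 0.0757). Tef rose in medulla by 0.83 ± 0.12 (limma adjusted p = 0.00145), with a cortex difference of 0.68 (limma adjusted p = 0.0547).

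Rora, which encodes an activator at ROR elements, was the other measured clock activator of 4 listed. It rose by 0.64 ± 0.11 in cortex (SE, limma adjusted p = 0.00631) and by 0.46 ± 0.11 in medulla (limma adjusted p = 0.0276). Of 7 genes whose products modify clock proteins, 4 were measured, Csnk1d, Csnk1e, Btrc and Gsk3b, and limma called 0 of them in either tissue. At an unadjusted limma p under 0.05 stood 1 of them in cortex, Gsk3b (difference 0.57, limma adjusted p = 0.181). In medulla 2 did, Gsk3b (0.28, limma adjusted p = 0.228) and Csnk1d (-0.25, 0.204).

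**Figure D4:**
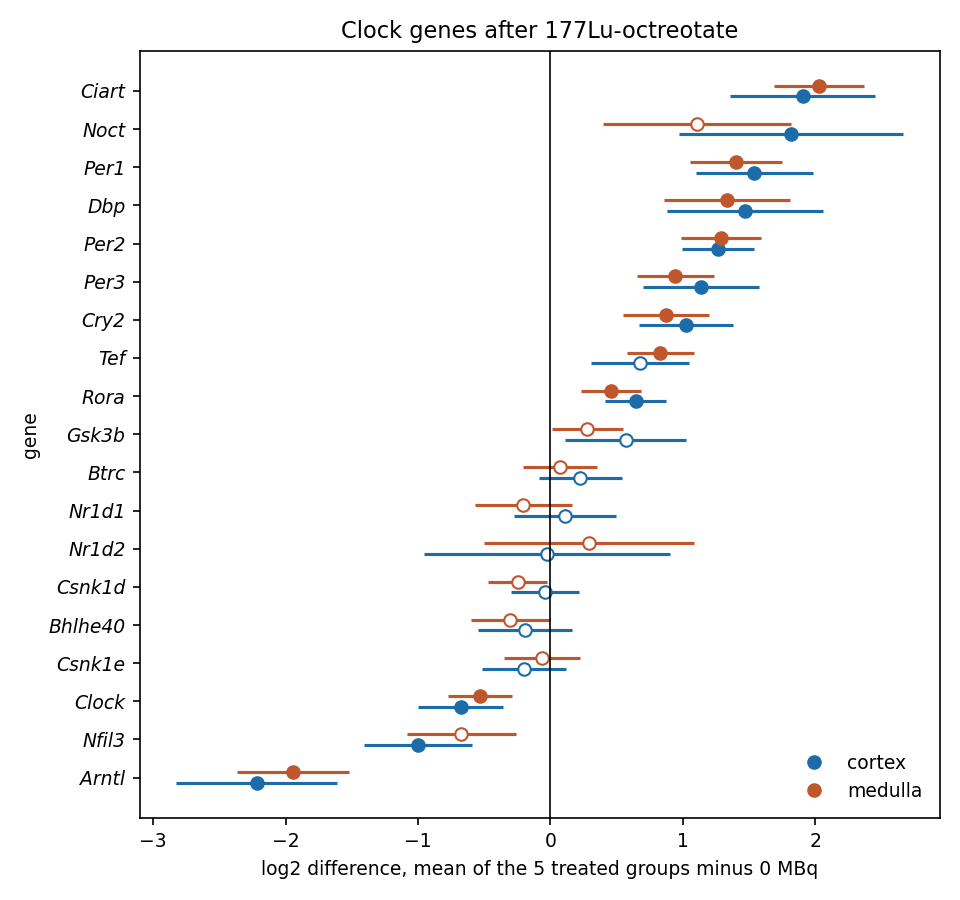
Log2 difference between the mean of the 5 treated groups and 0 MBq (horizontal axis) for each measured clock gene (vertical axis) in cortex and medulla, with 95% intervals. Filled points passed an adjusted p under 0.05 in limma. Arntl, Nfil3 and Clock lie at the lower end, and Ciart, Per1, Dbp, Per2, Per3, Cry2 and Rora above 0 in both tissues. For Arntl the point is the fitted value, which includes groups below background.

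Leaving out control replicate 1 of cortex lowered the count of repressors that rose there from 5 to 3, since Per3 and Cry2 were lost, and it ended the cortex call of Rora. Without control replicate 1 of medulla the repressor count there was 4, since Cry2 was lost. The Rora call in medulla and the Noct call in cortex were lost without any one of the 3 controls of that tissue. Tef was gained in cortex without replicate 3 at 14 or at 45 MBq, and Noct in medulla without replicate 3 at 3.6 MBq. Ciart, Per1, Per2 and Dbp kept their calls in both tissues under each array left out, but without control replicate 1 the Dbp difference was 0.82 in each tissue. These settings were chosen after the data were seen.

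Within the cortex controls Arntl and Dbp also ran opposite to each other, and in medulla this rested on replicate 1. Control replicate 1 had the highest normalised Arntl and the lowest Dbp of the 3 in each tissue: Dbp read 10.61, 12.77 and 12.32 in cortex and 10.80, 12.31 and 12.36 in medulla. Medulla replicate 3 lay above replicate 2 for both genes. Before normalisation the Arntl signal of cortex control replicate 1 (251.68) was below that of replicate 3 (264.82). The spread of Arntl over the controls, 6.44 to 8.50, was wider than over all 30 treated arrays. Dbp on the treated arrays ran from 13.11 to 13.64 in cortex and from 12.79 to 13.52 in medulla.

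**Figure D5:**
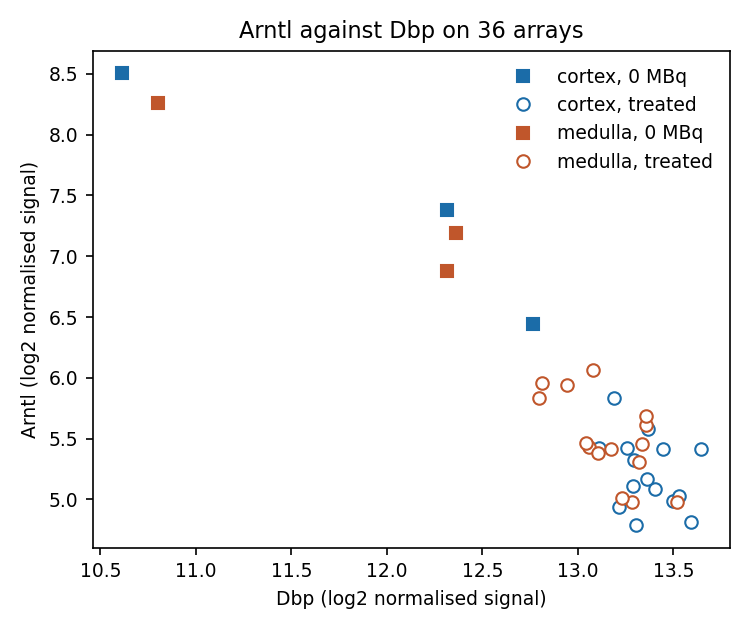
Log2 normalised signal of Arntl (vertical axis) against that of Dbp (horizontal axis) on the 36 arrays, with squares for controls and open circles for treated arrays. The 6 controls run from high Arntl with low Dbp (8.50 and 10.61) towards the treated arrays, which lie together at Arntl between 4.79 and 6.06.

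Among 11470 other genes, Dbp had the pattern most opposite to Arntl, with a Pearson r of -0.93 over the 36 arrays, each taken as its deviation from the mean of its tissue. Per3 (-0.90), Paqr7 (-0.90), Ak4 (-0.90) and Per2 (-0.88) followed. The most similar were Avpr1a (0.89), which encodes a vasopressin receptor, Mif4gd (0.89), Nsd1 (0.85), Nusap1 (0.84) and Plek (0.84). For Clock the most similar were Nup62 (0.85) and Rab32 (0.84) and the most opposite Ciart (-0.83) and Vmac (-0.82). For Nfil3 they were Serpina10 (0.80) and Sh3pxd2b (0.77), and Acaa2 (-0.75) and Rtn4rl1 (-0.75). These values describe arrays that share groups, so the step between control and treated arrays enters each of them.

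Over the 30 treated arrays alone the likeness was lower. Between Arntl and Dbp r was -0.52, between Arntl and Per3 -0.70, and between Arntl and Clock 0.59, against 0.78 over all 36. Between Arntl and Nfil3 it was -0.06, against 0.64, and between Clock and Nfil3 0.14, against 0.57. Arntl was above background on 6 of the 30 treated arrays, which limits these values.

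Summed marker signals of several other cell types, though not of all, were lower on many treated arrays than on the controls. Some treated arrays fall below or above all 3 controls without any difference, so counts such as 4 or 5 of 15 by themselves show no shift. Proximal tubule sums in medulla lay above every control on 8 of 15 treated arrays and below on 1, and in cortex above on 3 and below on 5. Adipocyte sums lay above on 8 of 15 in medulla and 3 of 15 in cortex, and below on 0 in each. Adrenal sums in cortex lay above on 7 of 15 and below on 0, and in medulla above on 4 and below on 4. Collecting duct sums lay above on 3 in medulla and below on 4 in cortex. Of 7 listed myeloid markers 5 were on the array. Their summed signal was 27240, 17610 and 4990 on the cortex controls against 1778 to 25680 (median 4756) on treated cortex arrays, and 31530, 17680 and 8338 on the medulla controls against 3358 to 21040 (median 7255) on treated medulla arrays, with 8 of 15 in cortex and 9 of 15 in medulla below every control. Control replicate 1 was the highest of all arrays of its tissue, as it was for Arntl. The 5 interferon response markers on the array, of which Ifit1 and Oas1a were below background on all arrays, summed to 1047 to 4612 on cortex controls and 603.5 to 2795 on treated cortex arrays, and to 1375 to 5283 and 875.9 to 2539 in medulla. Of the 6 endothelial markers, all on the array, the sum was 5872 to 8042 on cortex controls and 1777 to 6737 on treated cortex arrays (median 4724), 12 of 15 of them below every control. In medulla it was 7986 to 11080 and 6212 to 11050, with 5 of 15 below. The 4 lymphocyte markers on the array of 5 summed to 201.6 to 318 on cortex controls and 132.1 to 274.2 on treated ones, 12 of 15 below every control. In medulla they summed to 214.1 to 304.1 and 152.8 to 304.9, with 10 of 15 below. Of these 4, only 1 to 2 were above background on cortex controls, 0 to 3 on treated cortex arrays and 1 to 3 on medulla arrays. Signal below background therefore enters every lymphocyte sum. The 1 podocyte marker on the array of 4 read 1007 to 1336 on cortex controls and 224.2 to 1476 on treated ones, and 864.7 to 1074 and 582.5 to 1162 in medulla, with 9 of 15 below every control in each tissue. Thick limb and distal tubule markers summed to 68770 to 74250 on medulla controls and 61650 to 73620 on treated medulla arrays, 14 of 15 of them below every control, against 5 of 15 in cortex. The part of these transcripts in the fall of Arntl, Clock and Nfil3 was not tested.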

How the data were processed

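Total RNA from fresh-frozen kidney cortex and medulla was hybridised to Illumina bead arrays, and groups follow the sample titles. The deposited signal table holds linear intensity values with no background correction or normalisation applied, with a deposited detection p-value beside each, per the file headers. A deposited series table holds intensities that the authors had normalised. How they did so is not stated in the labels or headers, and the values served as an alternative. Among the 25697 probes, 23974 had 1 symbol, 0 several and 1723 none.

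Signals were background-corrected, quantile-normalised over the 36 arrays and taken to log2 with neqc (offset 16) of limma 3.58.1 in R 4.3.3. Negative controls were inferred from the detection p. Probes with a detection p under 0.05 on at least 3 arrays of a fit were kept, and the brightest stood for its gene. Each tissue was fitted apart with lmFit and eBayes (6 groups, 12 residual degrees of freedom). The slope used the 15 treated arrays (13), and comparisons between tissues used all 36 arrays (24). Tables were handled with the R package data.table (version 1.17.8) and figures drawn with matplotlib 3.10.9. A call is a Benjamini-Hochberg adjusted p under 0.05 over all features of a comparison. In data simulated on the real arrays, 50 genes were shifted per fold size, and only the mean of the treated groups against control was tested. The fit recovered 98% of genes changed 4-fold in each tissue, and 74% in cortex and 80% in medulla of genes changed 2-fold. Deviations were shuffled over all arrays of a tissue, so a wider spread of the controls, as for Arntl and Dbp, was not kept. Tests at single activities were not simulated. These shares therefore do not give the recovery for such genes or tests.

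The 5 genes and the clock lists were chosen with earlier results of these data known. All 5 genes are named, as are listed clock genes that were called or had the smallest p in a comparison described, and, for likeness, the 5 most positive and 5 most negative genes for Arntl and 2 of each for the others. Replicate numbers in the titles were checked for pairing. Same-numbered cortex and medulla arrays deviated together in 3 of 3 control pairs (r from 0.613 to 0.659), and in 11 of 15 treated pairs r was over 0.1. Within a tissue same-numbered arrays of different activities did so in 9 of 45 pairs in cortex and 10 of 45 in medulla, so the numbers did not pair them. Alternatives covered background correction, the deposited normalised values, detection filters, every probe, a replicate block, a stricter call rule (adjusted p under 0.01 and at least 1.5-fold), activity ranks, 1 fit of all arrays, and each array left out.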

Additional observations from a re-analysis of the deposited data

How the results depend on the processing

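The counts of calls among Arntl, Clock and Nfil3 kept within 1.5 times their reported value under no detection filter, a stricter detection filter and every probe, and activity ranks left the slope counts at 0. The test among all 6 groups was the least stable: in cortex its count of 1 was 0 with quantile normalisation without background correction, with the deposited normalised values and with the stricter call rule, and 3 with all 36 arrays in 1 fit, and in medulla its count of 2 was 1 with the replicate block, the stricter call rule and the fit of all 36 arrays. The stricter call rule left 3 of 15 single-activity calls in cortex and 4 of 15 in medulla, and 1 call over the treated mean in each tissue, while the fit of all 36 arrays gave 12 of 15 single-activity calls in cortex. Leaving out each array in turn gave 4 to 8 single-activity calls in cortex and 5 to 12 in medulla, 1 to 3 calls over the treated mean in each tissue, 0 to 0 in cortex and 0 to 1 in medulla among the treated groups, 1 to 1 in cortex and 1 to 3 in medulla among all 6 groups, and 0 to 0 for both slopes, the tissue difference and the interaction. The 12 came without medulla control replicate 3, the single call among treated medulla groups, on Arntl, whose treated signals were mostly below background, without control replicate 1 (adjusted p = 0.0327), and the lowest counts over the treated mean without control replicate 1 or 2. Among single genes, Nfil3 in medulla was called with the uncorrected and with the deposited values (-0.52, limma adjusted p = 0.0455 in each), and Clock in cortex was not with the replicate block (adjusted p = 0.0546). The replicate block within a tissue, where the numbers did not pair the arrays, moved no other call of these genes over the treated mean. No direction of these genes over the treated mean reversed under any of these settings. The size of the Arntl fall over the treated mean was smaller with the deposited values (-0.96 in cortex, -0.82 in medulla) and, in medulla, without background correction (-0.86). The causes of the other changes were not tested. Shares of all features called are not given for these settings. Whether a change in a count was particular to these genes therefore cannot be told. Signal over background limits Arntl after treatment to bounds and leaves Npas2 and Cry1 without values.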
